A study of Homo sapiens with 4 samples.

Results

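Galectins, S100 proteins and annexins were examined in ovarian cancer cells treated with an inhibitor of the leukemia inhibitory factor receptor (LIFR). The members were 10 genes of the 23228 gene symbols in the count files, namely LGALS1, LGALS3, LGALS8, S100A4, S100A6, S100A11, S100A13, ANXA1, ANXA5 and ANXA6. They were chosen by the measured change of LGALS1, which was strongly lower with EC359 in this same comparison, and taken as abundant transcripts of these families, so their changes are given below as a description, without a test. S100A4 did not match the word abundant, since it had 13 to 47 counts in a library and 94.7% of the 12706 genes tested had at least as many counts.

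The cells were ES2, an established human ovarian cancer cell line, kept for 12 h either in vehicle (0.1% DMSO) or in 10 nM EC359, the LIFR inhibitor. There were 2 libraries for each treatment, which the study describes as biologically independent, while the sample labels do not name separate cultures. Counts on genes ran from 25572494 to 31707553 in a library. Among markers of the ovarian epithelium, KRT7 had 6679 to 8979 counts and KRT18 had 6304 to 8773, whereas EPCAM, CDH1 and NAPSA had at most 2 counts and MUC16 had 0 in every library. The mesenchymal marker VIM had 135855 to 153104 counts. Of 7 leukocyte markers CD68, a lysosomal protein, was the only one above 2 counts, with 2296 to 2914, and of 3 endothelial markers CDH5 had 3118 to 3920 counts while PECAM1 and VWF had at most 2. LIFR, the target of EC359, had 1525 and 1475 normalized counts with vehicle and 1612 and 1519 with EC359, ranges that overlapped. EC359 acts on the receptor protein, so the LIFR transcript does not check the treatment.

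Galectins are lectins that bind beta-galactosides on glycoproteins. They are made in the cytosol and leave the cell without a signal peptide, and outside the cell they cross-link receptors, while inside it some of them bind glycans exposed on damaged lysosomes. S100 proteins are small calcium sensors built from EF-hand motifs that mostly work as dimers and bind target proteins when calcium rises. Annexins bind negatively charged phospholipids in the presence of calcium and take part in membrane traffic, membrane repair and the organisation of the submembrane cytoskeleton. S100 proteins and annexins meet directly, since S100A10 binds annexin A2 and S100A11 binds annexin A1. In tumours, galectin-1, S100A4 and annexin A2 are widely studied for their part in invasion and immune escape.

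Positions are given on GRCh37, the assembly that UCSC names hg19. LGALS1 lies at chr22:38071643-38075809 on the plus strand, LGALS3 at chr14:55590828-55612141 on the plus strand and LGALS8 at chr1:236681300-236716281 on the plus strand. The 4 S100 members share chromosome 1 and the minus strand, with S100A11 at chr1:152004982-152020383, S100A6 at chr1:153507075-153508720, S100A4 at chr1:153516089-153522612 and S100A13 at chr1:153591263-153603836. The annexins are spread over chr9:75766781-75785309 for ANXA1 on the plus strand, chr4:122589101-122618150 for ANXA5 on the minus strand and chr5:150480267-150537376 for ANXA6 on the minus strand. All 10 are protein-coding. Exons of LGALS8 overlap HEATR1 and LGALS8-AS1 on the opposite strand, and exons of S100A13 overlap S100A1 on the opposite strand. The strand setting of the counting is not given in the sources used here, so how reads in these overlaps were counted is not known.

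Promoter sequences were taken from RefSeq (GRCh38.p14 table) for the 9 members that have an entry, 14 entries in all. Their place on GRCh37 was found by an exact match. LGALS1 has no entry, so its promoter was not searched. Sequences of 4 members are printed to show how unlike the promoters of these genes are. They belong to the S100 member at the bottom of the level order below, to an abundant S100 member, to an abundant annexin and to a galectin. Each is the 250 bases before the transcription start of its RefSeq entry, 5′ to 3′ on the gene's own strand. No base of them lies in an annotated exon. The windows of S100A4, S100A11 and LGALS3 fall inside the gene positions given above, which come from GENCODE and begin farther upstream. That of ANXA1 ends just before its gene. Capitals mark TATAAA, the TATA box letters, and GGGCGG, the GC box letters that Sp1 binds, searched on both strands so that GGGCGG on the other strand reads CCGCCC.
S100A4 (chr1:153518283-153518532, minus strand): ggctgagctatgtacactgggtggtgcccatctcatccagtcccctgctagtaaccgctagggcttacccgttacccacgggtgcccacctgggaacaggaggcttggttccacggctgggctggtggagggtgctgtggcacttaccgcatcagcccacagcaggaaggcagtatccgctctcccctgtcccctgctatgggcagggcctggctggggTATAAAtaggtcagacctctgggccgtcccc
S100A11 (chr1:152009481-152009730, minus strand): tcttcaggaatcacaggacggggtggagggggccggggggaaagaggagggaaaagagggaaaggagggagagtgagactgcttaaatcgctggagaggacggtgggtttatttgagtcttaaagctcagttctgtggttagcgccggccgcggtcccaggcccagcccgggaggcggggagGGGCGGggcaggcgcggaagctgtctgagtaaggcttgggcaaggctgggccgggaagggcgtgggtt
ANXA1 (chr9:75766531-75766780, plus strand): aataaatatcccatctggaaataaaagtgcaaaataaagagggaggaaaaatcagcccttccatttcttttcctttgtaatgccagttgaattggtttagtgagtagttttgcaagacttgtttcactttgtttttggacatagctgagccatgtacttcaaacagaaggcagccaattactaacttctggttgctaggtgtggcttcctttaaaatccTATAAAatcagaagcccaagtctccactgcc
LGALS3 (chr14:55595720-55595969, plus strand): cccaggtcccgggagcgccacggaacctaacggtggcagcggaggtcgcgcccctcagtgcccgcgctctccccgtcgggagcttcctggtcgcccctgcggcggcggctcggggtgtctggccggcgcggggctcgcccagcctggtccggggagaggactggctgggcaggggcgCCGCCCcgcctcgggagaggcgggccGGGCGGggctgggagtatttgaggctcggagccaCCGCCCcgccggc

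S100A4 and ANXA1 had TATAAA 31 bases before the start and no GGGCGG. S100A11 had GGGCGG 68 bases before the start, and LGALS3 had it 73, 47 and 13 bases before, neither with TATAAA. The number of CpG dinucleotides in the window was 0 for ANXA1, 7 for S100A4, 15 for S100A11 and 32 for LGALS3, where the median of all 35116 promoters of this length was 11. Over all promoter entries of the 9 members, 4 members held TATAAA, which 10.7% of all promoters hold, and 7 held GGGCGG, which 42.6% hold. CCAAT, the letters bound by NF-Y, was found in 3 members against 32% of all promoters. Because several members have more than 1 entry, these counts per gene are not on the same footing as the shares of all promoters. The STAT letters TTCNNNGAA and the AP-1 letters TGANTCA were in none of the windows of these 9 members, which leave out LGALS1. Each is found in 6.57% of all promoters. The hypoxia response core ACGTG was in ANXA6 alone among the 9 members (18.5% of all promoters), and GCGTG was in 5 of them (32.2%). A match or its absence describes letters only.

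Levels of different genes were compared as RPKM, the counts for each kilobase of transcript and each 1000000 counts on genes, given as the mean ± SD of 2 libraries. In vehicle, LGALS1, which encodes galectin-1, had the highest level at 805 ± 13.6, rank 41 of the 12202 tested genes with a length. ANXA5, the annexin whose purified protein is used to stain phosphatidylserine on dying cells, followed at 571 ± 18.9, and S100A6, also called calcyclin, at 553 ± 16.1. The libraries of ANXA5 (557 and 584) and S100A6 (542 and 565) overlapped, so these neighbours in the order did not differ beyond their spread. ANXA1, a phospholipase A2-inhibitory annexin, was at 352 ± 12.2, S100A11 at 179 ± 3.93 and S100A13 at 136 ± 3.59. Below them were ANXA6 at 41.2 ± 1.43, LGALS3 at 22.6 ± 1.98, LGALS8 at 15.6 ± 0.789 and S100A4 at 1.30 ± 0.432, rank 10176. No other neighbours overlapped in vehicle.

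With EC359 the order of the 10 levels stayed as it was and no neighbours overlapped. LGALS1 was at 620 ± 6.34 RPKM and ANXA5 at 573 ± 13.4, so the gap between the first and the second gene was narrower than in vehicle. S100A6 was at 499 ± 2.69, below its vehicle level, and ANXA1 was at 352 ± 11.3. S100A11 stood at 178 ± 10.0, S100A13 at 126 ± 7.48, ANXA6 at 36.4 ± 0.939, LGALS3 at 24.8 ± 2.03, LGALS8 at 15.9 ± 0.255 and S100A4 at 2.12 ± 1.34. The members together took 0.253% and 0.246% of the counts on genes in the vehicle libraries and 0.238% and 0.234% in the EC359 libraries.

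**Figure D1:**
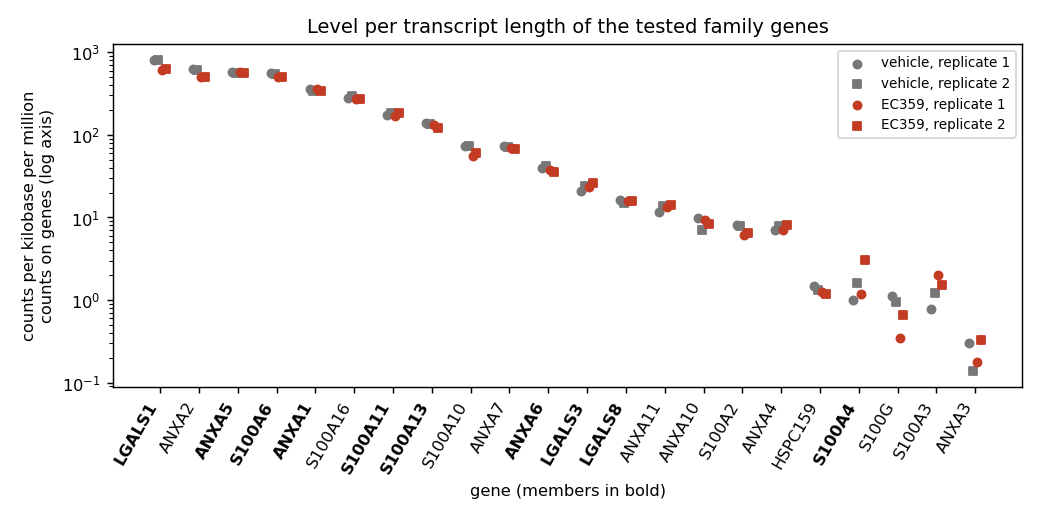
Level of each tested galectin, S100 and annexin gene in RPKM, on a log axis, with 1 point for each library, circles for replicate 1, squares for replicate 2, and the members in bold. LGALS1 lies first in both treatments (means 805 in vehicle and 620 with EC359), and S100A4 is the lowest member (1.30 and 2.12).

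The S100 members sit among their relatives. The 17 S100 genes counted on chromosome 1 lie within 1.65 Mb, and 6 of them, S100A7, S100A7A, S100A7L2, S100A8, S100A9 and S100A12, had 0 counts in every library. S100A7 is best known from keratinocytes, and S100A8, S100A9 and S100A12 from myeloid cells. S100A6 and S100A4, which are 7.37 kb apart on the same strand, differed by 425 times in mean level per length in vehicle and by 235 times with EC359. The second of these ratios rests on 1 library with a higher S100A4 count, described below. S100A16, a family gene outside the members, lay between S100A6 and S100A11 in level.

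**Figure D2:**
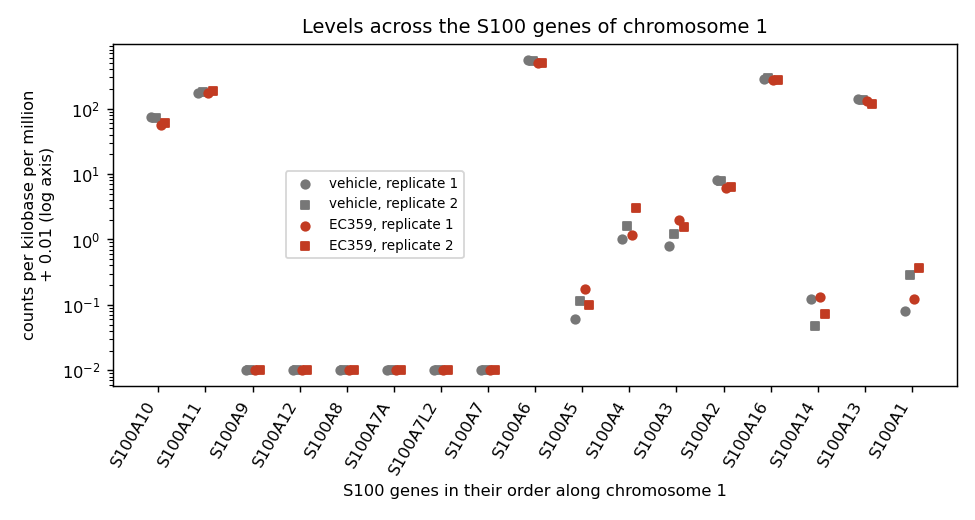
Level of the S100 genes in their order along chromosome 1, in RPKM with 0.01 added, on a log axis, with 1 point for each library. Genes with 0 counts in all 4 libraries sit at 0.01, between S100A11 (179 in vehicle) and S100A6 (553 in vehicle).

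Levels of a gene between treatments were compared as normalized counts, that is, counts scaled by TMM to a common library size, and the log2 fold change is EC359 against vehicle with its standard error (SE) from the model of all genes. Of the 12706 genes tested, 139, or 1.09%, passed an adjusted p of 0.01 (quasi-likelihood F-test of edgeR, Benjamini-Hochberg), 0.795% lower and 0.299% higher. Among the 10 members, all of which passed the filter on low counts, 1 was called lower, LGALS1, and 0 higher. At an unadjusted p under 0.05 there were 4 lower and 0 higher members, where 11% of all genes tested were lower and 10.7% higher. DESeq2 called 1 of the 8 members to which it gave an adjusted p, beside 3.45% of the 6840 genes with one. Since LGALS1 led to the choice of the members, nothing is read from these counts. Both EC359 libraries lay below both vehicle libraries for 4 members, against 25.4% of all genes tested, and above them for 0 members, against 26.1%. The other 6 members overlapped. The median log2 fold change of the members was -0.026, beside 0.003 for all genes tested.

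**Figure D3:**
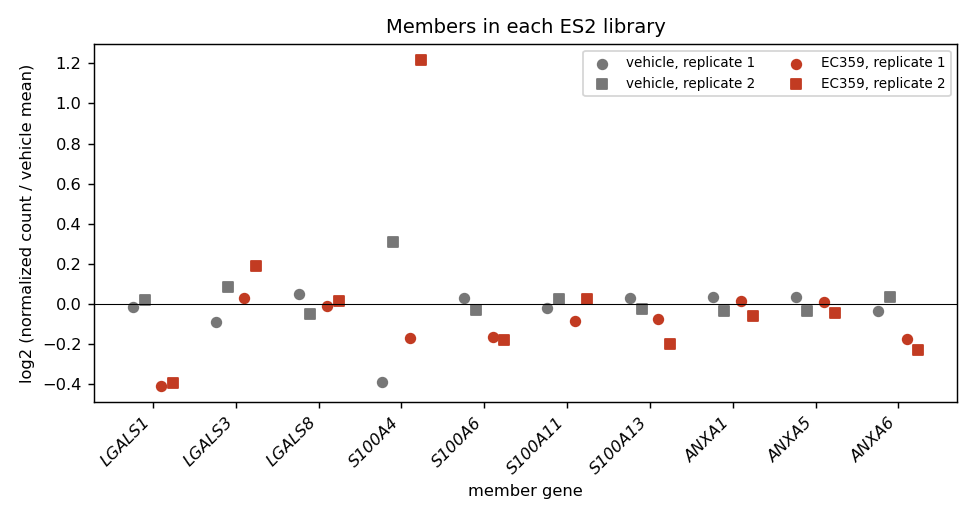
Normalized count of each member in each of the 4 libraries, divided by that gene's vehicle mean and shown on a log2 scale, with grey points for vehicle and red points for EC359. LGALS1, S100A6, S100A13 and ANXA6 have both EC359 points below both vehicle points, and the points of the other 6 genes overlap.

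Among the galectin members, LGALS1, the gene on which the choice of members rests, had 11950 and 12239 normalized counts in vehicle and 9114 and 9211 with EC359. The groups were far apart and the libraries of a treatment close together, with means of 12094 ± 204 and 9163 ± 68.1 (SD, n = 2). The log2 fold change was -0.40 with an SE of 0.0317, which is a change of -24.2%. The raw counts of LGALS1 were 10752 and 10999 in vehicle and 10305 and 9864 with EC359, although the EC359 libraries were deeper.

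LGALS3 encodes galectin-3, the chimera-type galectin that gathers on damaged lysosomes. It had 578 and 654 normalized counts in vehicle and 629 and 703 with EC359. Replicate 2 was the higher library in both treatments and the groups overlapped. The log2 fold change was 0.11 with an SE of 0.0861, and the replicates of a treatment differed by 0.18 and 0.16 on the same scale. LGALS8 encodes galectin-8, a tandem-repeat galectin that recruits an autophagy receptor to broken vesicles. Its normalized counts were 2734 and 2545 in vehicle and 2618 and 2668 with EC359, both EC359 values falling between the vehicle values. The log2 fold change of LGALS8 was 0.002 with an SE of 0.0474. On either strand, 34.4% of the 50-base windows of its transcript also occur in other annotated transcripts. Transcripts of HEATR1 and LGALS8-AS1, which overlap LGALS8 on the opposite strand, are among these. The share is therefore not a measure of sequence repeated elsewhere in the genome.

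Of all counts on galectin genes, LGALS1 took 77.5% (exact 95% binomial interval 76.8% to 78.2%) and 78.5% (77.9% to 79.2%) in the vehicle libraries and 72.9% (72.2% to 73.7%) and 72.4% (71.7% to 73.2%) in the EC359 libraries. The intervals cover counting error only. The mean share of LGALS8 was 17.0% ± 0.985 in vehicle and 21.0% ± 0.0231 with EC359, and that of LGALS3 was 3.97% ± 0.32 and 5.28% ± 0.352. These shares are of counts and not per length, and they add up to nearly the whole, so a lower share of LGALS1 raises the others.

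Among the S100 members, S100A6 had 6974 and 6693 normalized counts in vehicle and 6094 and 6024 with EC359. Both EC359 libraries were below both vehicle libraries. The log2 fold change was -0.17 with an SE of 0.0354, a change of -11.3%. S100A13, which takes part in the release of FGF1 from cells, had 1882 and 1813 normalized counts in vehicle and 1753 and 1605 with EC359. The groups did not overlap, but the EC359 libraries of S100A13 were farther apart than the gap between the groups, and its log2 fold change was -0.14 with an SE of 0.0567. Of its 50-base windows, 41.1% also occur in another annotated transcript.

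S100A11, the partner of annexin A1, had 2822 and 2911 normalized counts in vehicle and 2703 and 2915 with EC359. The groups overlapped, and the log2 fold change was -0.029 with an SE of 0.048. S100A4, a metastasis-associated S100 protein that binds non-muscle myosin, had raw counts of 13 and 21 in vehicle and 19 and 47 with EC359. Only EC359 replicate 2 stood above the rest. Its log2 fold change of 0.67 had an SE of 0.461, and without EC359 replicate 2 it was -0.17. At this depth no difference in S100A4 could be read.

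Among the annexin members, the groups did not overlap for ANXA6 and overlapped for ANXA1 and ANXA5. ANXA6, a large annexin with a doubled core that acts in cholesterol traffic and as a scaffold at the membrane, had 3305 and 3472 normalized counts in vehicle and 3006 and 2887 with EC359. Both EC359 libraries were below both vehicle libraries, with means of 3389 ± 118 and 2947 ± 84.2. The log2 fold change was -0.20 with an SE of 0.0437, a change of -13%.

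ANXA1 had 14376 and 13690 normalized counts in vehicle and 14151 and 13471 with EC359. ANXA5 had 27226 and 25975 in vehicle and 26751 and 25778 with EC359. For both genes replicate 1 was the higher library in each treatment and the groups overlapped. The log2 fold changes were -0.023 with an SE of 0.0369 for ANXA1 and -0.018 with an SE of 0.0338 for ANXA5.

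The members stand beside 42 other galectin, S100 and annexin symbols. Of these, 41 were in the count files, 20 had 0 counts in every library and 12 had enough counts to be tested, 1 galectin-like gene, 5 S100 genes and 6 annexins. In the test of all genes 1 of the 12 was called lower, ANXA2, and 0 were called higher, beside 1.09% of all genes. At an unadjusted p under 0.05 there were 5 lower and 1 higher, beside 11% and 10.7% of all genes, and DESeq2 called 2 of the 5 to which it gave an adjusted p, beside 3.45%. Both EC359 libraries were below both vehicle libraries for 7 of the 12, beside 25.4% of all genes, and above for 1, S100A3, beside 26.1%. The median log2 fold change of the 12 genes was -0.094.

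ANXA2 encodes annexin A2, which links membranes to actin and binds S100A10. It had 27565 and 27041 normalized counts in vehicle and 22082 and 21660 with EC359. The groups were clearly separated, with a log2 fold change of -0.32, an SE of 0.0295 and an adjusted p of 0.00082 (quasi-likelihood F-test of edgeR, Benjamini-Hochberg). Of its 50-base windows, 38.2% also occur in other annotated transcripts, ANXA2 pseudogenes among them, so its count is uncertain. The call was lost without EC359 replicate 1, at an adjusted p of 0.275, and without EC359 replicate 2, at 0.242, while the log2 fold change was -0.33 and -0.31. Over the 17 alternatives the adjusted p ranged from 4.35e-15 to 0.275.

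S100A10, the binding partner of annexin A2, had 1414 and 1383 normalized counts in vehicle and 1058 and 1145 with EC359. Both EC359 libraries were lower, but the log2 fold change of -0.35 (SE 0.0602) did not pass the threshold, at an adjusted p of 0.0127 by the quasi-likelihood test, while DESeq2 gave an adjusted p of 0.00423. The range over the alternatives was 8.24e-06 to 0.373. The mean shares of the annexin counts were 34.3% ± 0.186 in vehicle and 29.9% ± 0.217 with EC359 for ANXA2, 33.4% ± 0.476 and 35.9% ± 0.19 for ANXA5, and 17.6% ± 0.275 and 18.9% ± 0.264 for ANXA1.

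The other S100 genes tested did not pass the threshold. S100A2, first known from mammary epithelium, had 227 and 221 normalized counts in vehicle and 170 and 175 with EC359, with a log2 fold change of -0.38 and an adjusted p of 0.0817 in edgeR's test. S100A16 had a log2 fold change of -0.10, S100G of -1.05 on at most 14.4 normalized counts, and S100A3 of 0.80 on 16.7 to 41.6. Their adjusted p in edgeR's test was 0.108, 0.238 and 0.168. HSPC159, the symbol under which the galectin-related gene LGALSL was counted, had -0.22 with an adjusted p of 0.398 in edgeR's test. For the remaining annexins the log2 fold change was -0.084 for ANXA7, -0.016 for ANXA4, 0.053 for ANXA10, 0.09 for ANXA11 and 0.17 for ANXA3, with adjusted p from 0.219 to 0.947 in edgeR's test.

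**Figure D4:**
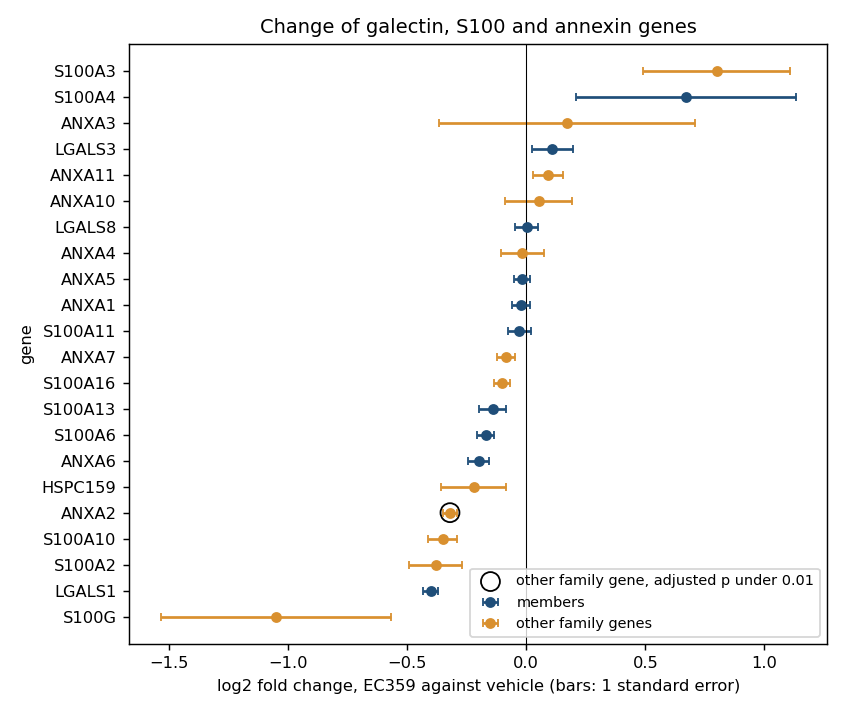
Log2 fold change, EC359 against vehicle, of the members (blue) and the other family genes that were tested (orange), with bars of 1 standard error. LGALS1 lies at -0.40 and ANXA2, ringed as the other family gene with an adjusted p under 0.01 in edgeR's test, at -0.32, whereas ANXA1 (-0.023) and ANXA5 (-0.018) lie near 0.

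Genes that work with these families were followed in 2 lists drawn from general knowledge. The list of galectin ligands, glycan enzymes and partners in lysosome damage had 25 genes tested of 27, of which 1 was called lower and 0 higher, beside 0.795% and 0.299% of all genes, with a median log2 fold change of 0.015. At an unadjusted p under 0.05 there were 1 lower and 6 higher, beside 11% and 10.7% of all genes. The lower gene was TFRC, the transferrin receptor and a glycoprotein bound by galectin-3, with 27956 and 26574 normalized counts in vehicle and 23544 and 22785 with EC359. Its log2 fold change was -0.24 (SE 0.034) with an adjusted p of 0.0055 in edgeR's test. MCAM, an adhesion molecule bound by galectin-1, had 182 and 196 in vehicle and 259 and 275 with EC359, and its log2 fold change of 0.50 did not pass, at an adjusted p of 0.0319 in edgeR's test. MUC1, a membrane mucin, had 0.58 on at most 16.8 normalized counts and an adjusted p of 0.451 in edgeR's test.

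The list of S100 and annexin partners had 23 genes tested of 29, with 1 called lower, 0 higher and a median log2 fold change of -0.021, where 0.795% of all genes were called lower and 0.299% higher. At an unadjusted p under 0.05 there were 7 lower and 2 higher, again beside 11% and 10.7%. The lower gene was AHNAK, a giant scaffold protein that binds the complex of annexin A2 and S100A10, with 28508 and 27937 normalized counts in vehicle and 24982 and 24277 with EC359. Its log2 fold change was -0.20 (SE 0.0301) with an adjusted p of 0.00705 in edgeR's test. CAPNS1, the small calpain subunit, had -0.21 with an adjusted p of 0.0114 in edgeR's test, and AGER, the receptor for several S100 proteins, had -0.43 with an adjusted p of 0.327 in edgeR's test. The calls of TFRC and AHNAK were lost without EC359 replicate 1, at adjusted p of 0.309 and 0.329, and without EC359 replicate 2, at 0.306 and 0.315 in edgeR's test. They were also lost without the filter on low counts, at 0.012 for TFRC and 0.0138 for AHNAK, and that of AHNAK with scaling by total counts, at 0.0105.

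The genes with the pattern most like LGALS1 were sought by the Euclidean distance over the 4 libraries in log2 CPM (counts scaled to 1000000 for each library) centred on each gene's mean, among 2735 tested genes within 2 log2 units of its level. The nearest was KIF20A, a mitotic kinesin, at 0.0577. PGK1, a glycolytic kinase, followed at 0.0649, TMSB10, an actin-binding thymosin, at 0.0656, CCNB1, the mitotic cyclin B1, at 0.0731 and SERF2 at 0.0809. Their log2 fold changes were -0.40, -0.41, -0.36, -0.35 and -0.32. They resemble LGALS1 over 4 libraries only, and the likeness is a description.

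Transcript length moved with the direction of change in these libraries. The median log2 fold change was -0.064 for the 832 tested genes with transcripts of at most 1000 bases, of which 62.9% had a lower mean with EC359, and 0.020 for the 3358 genes with transcripts over 5000 bases. The members with short transcripts are LGALS1 with 528 bases, S100A6 with 434, S100A13 with 477, S100A11 with 563, S100A4 with 513 and LGALS3 with 958. With each library's trend against length removed, the log2 fold change was -0.31 for LGALS1, -0.076 for S100A6, -0.043 for S100A13 and 0.055 for S100A11. It was 0.16 for LGALS3 and 0.75 for S100A4, against 0.11 and 0.67 without that step. LGALS1 was lower with and without that step, and the values of S100A6 and S100A13 were nearer to 0. The part of transcript length in these changes was not tested further.

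**Figure D5:**
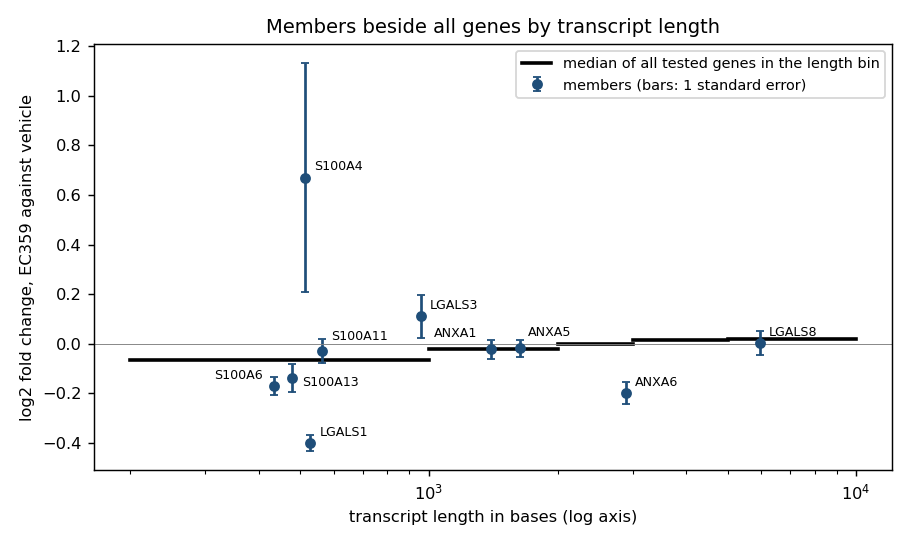
Log2 fold change, EC359 against vehicle, of each member with a bar of 1 standard error, against its transcript length in bases on a log axis, with a line at the median of all tested genes in each length class. LGALS1 (528 bases, -0.40) lies below the median of its class (-0.064), and ANXA1 and ANXA5 lie near their line.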

How the data were processed

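Polyadenylated RNA of ES2 cells was sequenced as 50-base single-end stranded libraries, 2 for each treatment. The authors used TopHat2 to align to UCSC hg19 (2.0.8b per the submitters' processing notes, which also list CASAVA 1.8.2), NCBI RefSeq for annotation and HTSeq for counting. The deposited values are raw counts for each gene symbol, without normalization. Rows that name no gene were left out throughout. They held 10.9% to 12% (no feature) and 0.852% to 0.879% (ambiguous) of uniquely aligned reads. Alignments that were not unique are not in the gene counts.

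The filterByExpr step of edgeR 4.0.16 (minimum count 10, minimum total 15) kept 12706 genes. TMM factors and the quasi-likelihood F-test were applied in R 4.3.3 with no block, p was adjusted by Benjamini-Hochberg over all of these genes, and calls needed an adjusted p under 0.01. The SE is the absolute log2 fold change over the root of F. Replicates differed beyond sampling noise (chi-square per degree of freedom of 3.78 in vehicle and 2.69 in EC359), and each library counted as 1 replicate. The p-values set the difference between treatments against a variance estimated from these libraries, with information shared across genes. They rest on these libraries alone. Intervals of shares are exact binomial intervals. Positions and transcript lengths came from GENCODE lifted to GRCh37, where 91.8% of symbols matched and 96% of tested genes had a length.

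The members and the gene lists were chosen with earlier results of these data known. The text names all members, every other family gene tested, the called genes and the 3 largest absolute changes of each partner list, and the 5 genes nearest to LGALS1. As alternatives, the factors were RLE, upper-quartile or total counts only, the tool was DESeq2 1.42.0, the exact test of edgeR or voom of limma 3.58.1, the filter was absent or required 10 counts in all libraries, the threshold was looser, a replicate block was added, a length or GC trend was removed, and each library was left out in turn. Of the marker genes listed for the ovarian epithelium, 1 is not reported here.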

Additional observations from a re-analysis of the deposited data

How the results depend on the processing

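Over the 17 alternatives the log2 fold change ran from -0.42 to -0.31 for LGALS1 and from -0.34 to -0.30 for ANXA2. The members were chosen by the fall of LGALS1 in these same libraries, so its direction here adds no support. Both looser thresholds reuse the main fit and could not change a log2 fold change. The call of LGALS1 was lost without EC359 replicate 1 and without EC359 replicate 2, where its log2 fold change was -0.39 and -0.41. The 139 calls over all genes became 236 with DESeq2, 568 with the exact test, 61 without a filter, 549 at an adjusted p under 0.05, 1255 at an unadjusted p under 0.01 and 1093 with the GC trend removed. The member calls became 3 with the exact test, both looser thresholds and the GC trend removed, S100A6 and ANXA6 being the ones added. The other family calls became 2 with DESeq2, the exact test, the adjusted p under 0.05 and the GC trend removed, and 3 at the unadjusted p. The 2 partner calls became 1 with total counts, 4 with DESeq2, 5 with the exact test and the adjusted p under 0.05, 7 at the unadjusted p and with the GC trend removed, and 0 without a filter, where edgeR's test gave 15 at an unadjusted p under 0.05. The cause was not tested.

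Leaving out 1 library gave 0 to 539 calls over all genes, namely 390 and 539 without vehicle replicate 1 and 2, and 0 and 2 without EC359 replicate 1 and 2. Without EC359 replicate 1, 1460 genes were at an unadjusted p under 0.05 in edgeR's test, against 2750 with all libraries. Member and other family calls ranged from 0 to 2 and partner calls from 0 to 4, all 0 without either EC359 library. The lone library left is assumed to vary like the other treatment.

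With a replicate block there were 1539 calls over all genes, 3 members, 3 other family genes and 10 partners. Nothing in the labels ties the numbers to a shared culture or day and there are only 2 pairs, so no pairing was used. Across all genes tested, same-numbered libraries deviated together with a correlation of 0.0988. Each gene weighs the same in it, so the noise of low counts enters, and it cannot decide whether the libraries were paired.

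Changes of sign occurred for genes near 0, and for S100A4 and ANXA3, which have few counts. The log2 fold changes were 0.00088 for ANXA1, 0.0055 for ANXA5 and 0.008 for ANXA4 with total counts, and -0.00059 (DESeq2), -0.00023 (no filter), -0.021 (length trend removed) and -0.02 (GC trend removed) for LGALS8. With the length trend removed they were 0.055 for S100A11, 0.0053 for ANXA1 and 0.0024 for ANXA5. Leaving out a library gave -0.063 to 0.014 for ANXA1, -0.057 to 0.017 for ANXA5, -0.0058 to 0.19 for ANXA11, -0.055 to 0.055 for LGALS8, -0.32 to 0.83 for ANXA3, -0.11 to 0.075 for ANXA4, -0.18 to 0.32 for ANXA10, -0.084 to 0.024 for S100A11 and -0.17 to 1.21 for S100A4. The last, like ANXA3, is limited by counts of at most 47 in a library.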
